A study of Mus musculus with 12 samples.

Results

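Bex1, Bex2, Bex3, Bex4, Tceal1, Tceal8 and Tceal9 are small genes of the Bex (brain expressed X-linked) and Tceal (transcription elongation factor A like) families, which sit side by side on the X chromosome. These 7 genes were selected by name among the 25759 genes listed for every library, 954 of which are X-linked. RNA was sequenced from HATX3 ESCs. These mouse ESCs carry the reverse tetracycline transactivator at Rosa26 and a doxycycline-responsive promoter in front of Xist, so doxycycline switches on Xist. The line came from haploid embryos and had become diploid in culture. Wild-type cells of the polyclonal parental line (replicates 1, 2 and 3) were compared with ΔCdk8 cells (clones 8, 11 and 15), each a single clone with a Cas9 deletion that took out the Cdk8 start codon. Each was sequenced uninduced and after 48 h of Xist induction with 1 µg/ml doxycycline, giving 4 groups of 3 libraries. No source used here says whether wild-type samples were separate cultures, so p-values measure the spread between these samples.

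Xist RNA coats the chromosome that makes it and silences its genes, and CDK8 is a kinase of the Mediator complex, which links transcription factors to RNA polymerase II. BEX proteins are small, largely unstructured proteins best known from brain and neurons, where BEX1 and BEX3 bind the intracellular part of the neurotrophin receptor p75NTR. TCEAL proteins resemble part of the elongation factor TFIIS, and both families arose by duplication within 1 stretch of the X chromosome.

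Depth ranged from 22170087 to 60798578 reads counted on genes per library. TPM is a level scaled by the authors for exon length and library size, so that levels of different genes can be compared. Cdk8 itself did not separate the genotypes, at 64.2, 69.4 and 74.2 TPM in uninduced wild-type replicates 1, 2 and 3 and 34.4, 56.8 and 85.3 TPM in clones 8, 11 and 15. The values are for whole genes, so the deleted part could not be seen. By western blots, which are not analysed here, the study found no detectable Cdk8 protein in these clones. It proposes that a small insertion in 1 of them might explain the residual transcript of that clone. ESC markers (12 of 12 listed) summed to 4858 to 8419 TPM over all 4 groups, but the means of single markers differed between the groups compared. In wild-type cells Esrrb averaged 72.9 TPM before and 228 TPM after induction, and Tdgf1 759 and 368 TPM. Without induction Nanog averaged 102 TPM in wild-type cells and 305 TPM in the clones, and Tfcp2l1 22.1 and 90.2 TPM. By edgeR 0 of 12 ESC markers passed in either comparison, with 6 and 2 at an unadjusted p under 0.05. DESeq2 passed 1 lower and 1 higher on induction, the latter being Esrrb, and Tfcp2l1 alone between the genotypes. The part of these markers in the results was not tested. Neural markers (10 of 10 listed) summed to 207 to 298 TPM in uninduced wild-type and 390 to 478 TPM in uninduced ΔCdk8 cells, mostly from Stmn2 and Tubb3. Stmn2 averaged 164 and 347 TPM in these groups, Tubb3 78.0 and 76.7 TPM and Sox1 1.84 and 0.381 TPM, and the neuronal markers Dcx and Neurog2 stayed at or near 0 in every library.

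On GRCm38, 6 of the genes lie within 205 kb of the X chromosome, in the order Bex2 (136066564 to 136068236, reverse strand), Bex4 (136138996 to 136140443, forward), Tceal8 (136168984 to 136172342, reverse), Bex1 (136213972 to 136215513, reverse), Tceal9 (136245079 to 136247139, forward) and Bex3 (136270253 to 136271978, forward). Tceal1 (136707982 to 136711478, forward) stands apart, which extends the span to 645 kb. The genes are 32.6 to 33.2 Mb from Xist. RefSeq promoter windows (GRCm38.p6, 250 bases before to 50 after the annotated start) matched 7 of 7 genes.

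The promoter sequences are shown because members share long identical stretches in them. The windows of Bex1 and Bex4 shared a run of 271 identical bases, and 98.0% of the 294 aligned bases were the same. Bex2 and Bex3 shared a run of 162 bases, with 84.8% of 263 aligned bases the same. No other pair of the 7 windows shared more than 17 bases in a row. The 100 bases before the annotated start of Bex1 (reverse strand, chrX:136215514-136215613) are repeated without a difference upstream of Bex4 (forward strand, chrX:136138890-136138989):
Bex1 and Bex4: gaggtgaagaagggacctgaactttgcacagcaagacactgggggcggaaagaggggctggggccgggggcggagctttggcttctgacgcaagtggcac
The 100 bases before the annotated start of Bex2 (reverse strand, chrX:136068237-136068336) likewise recur upstream of Bex3 (forward strand, chrX:136270116-136270215), 38 to 137 bases before its annotated start:
Bex2 and Bex3: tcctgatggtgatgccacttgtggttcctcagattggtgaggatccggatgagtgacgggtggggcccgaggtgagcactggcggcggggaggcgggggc

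Around the start site, most of these genes also carry a TGACG followed at short distance by CACGTGAC, which contains the palindrome CACGTG. The combination was noticed in these windows and then counted, so its frequency in them is a description. TGACG up to 20 bases before CACGTGAC, on either strand, occurred in 5 of the 7 windows and in 0.11% of all 32851 promoter windows. The 5 genes are Bex1, Bex3, Bex4, Tceal1 and Tceal8. Tceal9 has CATGTGAC at the matching place, and in Bex2 the place that aligns with the Bex3 element falls beyond the window. The elements are printed 5′ to 3′ on the strand of the gene, with TGACG and CACGTGAC or CATGTGAC in capitals:
Bex1 (chrX:136215503-136215532, reverse): cttcTGACGcaagtggCACGTGACtagccc
Bex4 (chrX:136138971-136139000, forward): cttcTGACGcaagtggCACGTGACtagccc
Tceal8 (chrX:136172221-136172250, reverse): ttgaTGACGcgatcctCACGTGACcagcag
Tceal9 (chrX:136245072-136245101, forward): ctggTGACGtagatctCATGTGACcaggag
Bex3 (chrX:136270262-136270291, forward): gcagTGACGcagggccctCACGTGACccgg
Tceal1 (chrX:136707963-136707992, forward): gctgTGACGcgctcccctCACGTGACcagg
The 2 capital blocks were 7 bases apart in Bex1, Bex4, Tceal8 and Tceal9 and 9 bases apart in Bex3 and Tceal1.

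On the whole X chromosome the combination occurred in 11 of 1223 windows (0.899%), all within 2.02 Mb. Besides the 5 members they belong to Tceal3, Tceal6, Armcx6, Armcx4 and B230119M05Rik, which overlaps the start of Armcx4. After induction Armcx6 kept 0.0132 ± 0.00226 (SD, n = 3) of its uninduced TPM in wild-type cells, and Armcx4 kept 0.0693 ± 0.00379. The 5 members with the combination kept from 0.0504 (Tceal1) to 0.267 (Bex3) on average. Bex2 and Tceal9, without it in their windows, kept 0.261 and 0.137, and the X-linked median was 0.314. The part of the combination in silencing was not tested. Single motifs were far more common: CACGTG was found in 7.15% of all windows, TGACG or its complement CGTCA in 20.8% (all 7 members), and GGGCGG or CCGCCC in 35.7% (6 members, not Tceal1).

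In uninduced wild-type cells, 6 of the 7 genes were well expressed and Tceal1 was barely detected. Bex1 ranked 7th among 428 X-linked genes with a mean of at least 1 TPM, Bex3 15th, Tceal9 22nd, Bex4 23rd, Tceal8 62nd, Bex2 63rd and Tceal1 425th. Mean levels were 573 ± 60.7 TPM (SD, n = 3) for Bex1, 363 ± 29.3 for Bex3, 265 ± 64.0 for Tceal9, 251 ± 28.1 for Bex4, 88.6 ± 11.1 for Tceal8, 85.7 ± 12.4 for Bex2 and 1.04 ± 0.127 for Tceal1. The ranges of Tceal9 and Bex4 overlapped, as did those of Tceal8 and Bex2, and the other neighbours in this order were separate. Bex1 and Bex4, which share their upstream sequence, thus stood at 573 and 251 TPM, and Bex2 and Bex3 at 85.7 and 363 TPM.

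**Figure D1:**
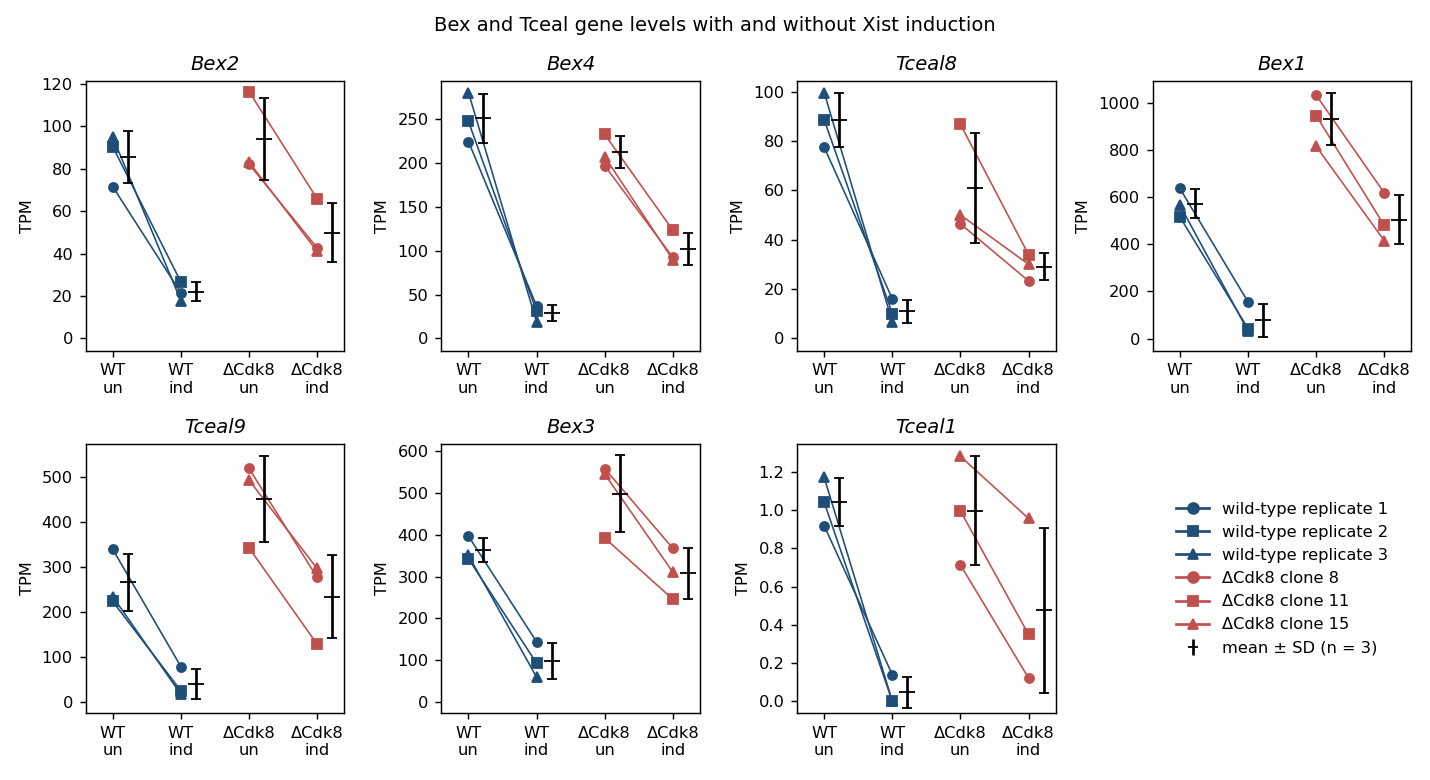
Level of each gene in TPM in every library, with 1 panel per gene in chromosome order, lines joining the uninduced (un) and induced (ind) library of the same wild-type replicate or ΔCdk8 clone, and black marks at the mean ± SD of 3 libraries. All 7 genes were lower in the 3 induced than in the 3 uninduced wild-type libraries, and Bex1 and Tceal9 were higher in uninduced ΔCdk8 clones than in uninduced wild-type samples.

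The first comparison asks how far these genes are silenced when Xist is switched on. Every member was lower in all 3 induced than in all 3 uninduced wild-type libraries, a separation seen in 82.5% of the 428 expressed X-linked genes and 15% of all 11801 expressed genes. Bex2, Bex4 and Tceal8 decreased by edgeR's quasi-likelihood test (fold change above 2 and Benjamini-Hochberg adjusted p under 0.01), 3 of 7 members, where 1.01% of all genes tested and 27.7% of X-linked genes decreased. With the replicate number as a block, 6 of 7 members decreased, all but Tceal1, beside 2.48% of all genes and 52.3% of X-linked genes. DESeq2 passed 7 of 7, beside 3.14% of all and 61.9% of X-linked genes, and an adjusted p under 0.05 alone was met by 6, beside 2.77% of all genes. The count moved with that of all X-linked genes when a sample was left out. Without replicate 1 all 7 members passed, beside 49.8% of X-linked genes, and without replicate 2 or 3 it was 0 members, beside 0% of X-linked genes. With the block it was 7, 0 and 6 members without replicates 1, 2 and 3, beside 65.7%, 8.24% and 42.7% of X-linked genes. Libraries of the same number deviated together, so the blocked value is given for each member whose call it changes. The median log2 fold change was -2.91 over the 7 members, -1.55 over 480 X-linked genes and 0.03 over all 14006 genes tested. The study listed Bex1, Bex4, Tceal1, Tceal8 and Tceal9 among strongly repressed X-linked genes on these same samples, so these counts are not independent evidence of their direction.

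Bex1, an adaptor of p75NTR signalling, was measured at 637, 516 and 566 TPM in uninduced wild-type replicates 1, 2 and 3. After induction it was measured at 156, 42.4 and 32.3 TPM. Replicate 1 kept several times more Bex1 RNA than the other 2. It also had the higher sum of trophoblast markers (8 of 8 listed), at 94.4 TPM uninduced and 83.6 TPM induced against 17.9 to 26.6 TPM in replicates 2 and 3. Its fibroblast marker sum was 17.8 and 15.2 TPM against 5.70 to 11.6 TPM. Its uninduced ESC marker sum was 8095 TPM against 5395 and 4858 TPM, and its induced neural sum 178 TPM against 366 and 282 TPM. The part of these markers in the differences between replicates was not tested. The log2 fold change was -2.91 ± 0.57 (SE; edgeR adjusted p = 0.040), and with the block -3.21 ± 0.39 (adjusted p = 0.0050).

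Bex3, also known as NADE for its part in p75NTR-associated cell death, went from 397, 342 and 350 TPM to 144, 92.3 and 59.0 TPM in the same order of replicates. It was the most highly expressed member after induction, with a range that overlapped that of Bex1. The log2 fold change was -1.88 ± 0.28 (edgeR adjusted p = 0.017), and with the block -1.95 ± 0.18 (adjusted p = 0.0025).

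Bex4, which is known to associate with microtubules, was measured at 224, 247 and 280 TPM uninduced and at 37.0, 30.8 and 18.6 TPM induced. Bex2, linked to the control of apoptosis, was measured at 71.6, 90.4 and 95.0 TPM uninduced and at 21.5, 26.6 and 17.8 TPM induced. In both genes the 2 conditions lay far apart, and replicate 3 was the lowest after induction. The log2 fold change was -3.12 ± 0.25 for Bex4 (edgeR adjusted p = 0.0024) and -1.95 ± 0.21 for Bex2 (adjusted p = 0.0053).

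Tceal8 went from 77.6, 88.6 and 99.7 TPM to 16.1, 10.1 and 6.74 TPM, with a log2 fold change of -3.01 ± 0.29 (edgeR adjusted p = 0.0039). Tceal9, formerly Wbp5 and named for binding a WW domain, went from 339, 223 and 234 TPM to 78.0, 24.4 and 16.5 TPM. Its log2 fold change was -2.75 ± 0.55 (edgeR adjusted p = 0.043), and with the block -3.00 ± 0.30 (adjusted p = 0.0029). As for Bex1, replicate 1 stood above the other 2 in both conditions.

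Tceal1 was counted with 33, 43 and 77 reads (0.919, 1.04 and 1.17 TPM) in uninduced wild-type libraries and with 5, 0 and 0 reads in induced ones. The sums of 153 and 5 reads, scaled to the reads on all genes, give a residual of 0.0427 with an exact interval of 0.0137 to 0.102 at the 95% level, which covers counting error only. Its log2 fold change of -4.42 ± 0.95 did not pass (edgeR adjusted p = 0.051, and 0.020 with the block). Without replicate 1, the only one with induced reads, the fitted value was -8.64 (edgeR adjusted p = 0.0059). It then depends on the prior count, since both induced libraries are at 0, and gives no size of the change.

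Residual expression, the induced over the uninduced TPM of the same replicate, put the members on 1 scale. In replicates 1, 2 and 3 it was 0.245, 0.0821 and 0.0571 for Bex1, 0.300, 0.294 and 0.187 for Bex2, 0.362, 0.270 and 0.168 for Bex3, and 0.165, 0.124 and 0.0663 for Bex4. It was 0.207, 0.114 and 0.0676 for Tceal8, 0.230, 0.110 and 0.0706 for Tceal9 and 0.151, 0 and 0 for Tceal1. Every member was highest in replicate 1, and replicate 3 was the lowest or level with replicate 2 at 0. The X-linked median ran from 0.342 through 0.328 to 0.272 in these replicates. From replicate 1 to replicate 3 the residual differed 4.28-fold for Bex1, 3.26-fold for Tceal9, 3.07-fold for Tceal8, 2.49-fold for Bex4, 2.15-fold for Bex3 and 1.61-fold for Bex2, and the median X-linked gene 1.17-fold.

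The members fell into 2 levels of mean residual. Bex2 (0.261 ± 0.0638, SD, n = 3) and Bex3 (0.267 ± 0.0969) were the highest, and Bex4 (0.119 ± 0.0495), Bex1 (0.128 ± 0.102), Tceal8 (0.130 ± 0.0712) and Tceal9 (0.137 ± 0.0834) lay at about the same lower value, with Tceal1 at 0.0504 ± 0.0873. The means of Bex1, of Bex4, which shares the promoter stretch shown above, and of Tceal8 differed by less than their SDs. The part of the shared stretch was not tested. Within each replicate Bex2 and Bex3 were both above all of the other 5. Between 3.50% (Tceal1) and 41.8% (Bex3) of the 428 X-linked genes had a lower mean residual than a given member.

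**Figure D2:**
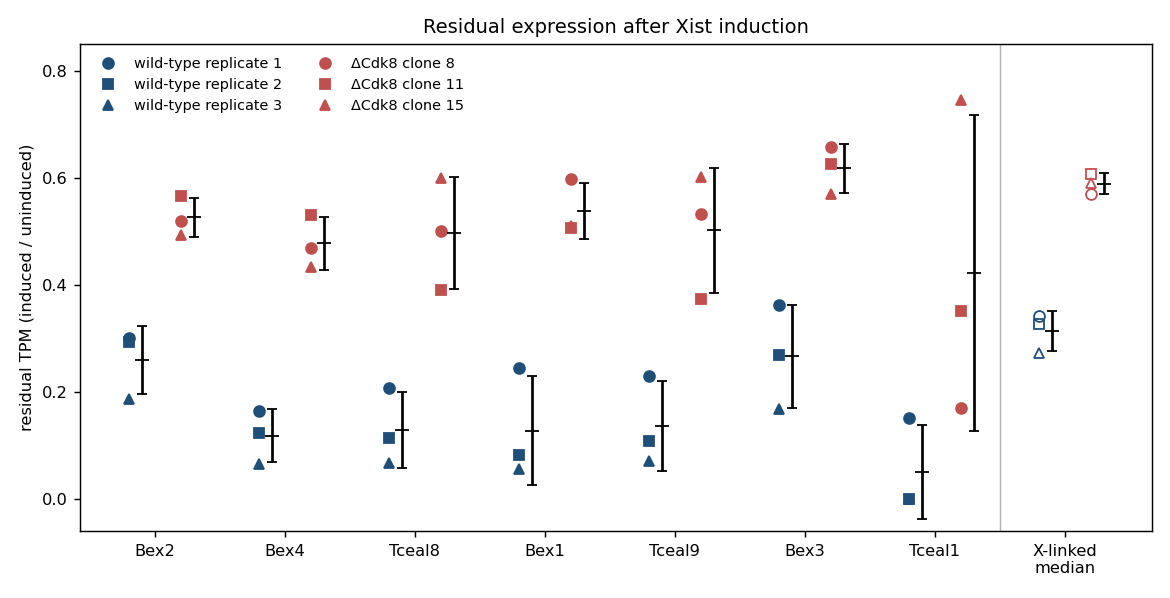
Residual expression (induced over uninduced TPM of the same replicate or clone) of each gene in chromosome order, with the median of expressed X-linked genes in open symbols on the right and black marks at the mean ± SD of 3. Every ΔCdk8 value lies above every wild-type value of the same gene, and in wild-type cells replicate 1 is the highest for each gene.

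The same comparison was made in the ΔCdk8 clones. Induced levels were below all uninduced levels in 6 of 7 members, all but Tceal1, where this held for 46.8% of 449 expressed X-linked genes and 3.7% of all expressed genes. By edgeR without the block 0 of 7 members passed, as did 0 of 14832 genes (percent called 0), while 6 of 7 members and 392 genes had an unadjusted p under 0.05. With the clone number as a block, Bex4 and Tceal8 decreased, 2 of 7 members, beside 1.27% of all genes and 24.1% of X-linked genes. Without clone 8, 11 or 15 the blocked count was 3, 1 and 3, beside 21.6%, 27.1% and 23.1% of X-linked genes. DESeq2 passed 0 of 7 members, beside 0.243% of all genes. The median log2 fold change was -0.95 over the members and -0.70 over 531 X-linked genes.

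Bex1 was measured at 1034, 947 and 816 TPM in uninduced clones 8, 11 and 15 and at 618, 480 and 416 TPM after induction. Bex3 was measured at 559, 392 and 546 TPM uninduced and at 368, 246 and 310 TPM induced. Induced ΔCdk8 cells thus held about as much Bex1 and Bex3 RNA as uninduced wild-type cells, with overlapping ranges. The blocked log2 fold changes were -0.88 ± 0.08 for Bex1 (edgeR adjusted p = 2.6e-07) and -0.68 ± 0.08 for Bex3 (adjusted p = 4.9e-06), both short of the required fold.

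Bex4 went from 197, 232 and 207 TPM to 92.4, 123 and 89.8 TPM, a blocked log2 fold change of -1.05 ± 0.08 (edgeR adjusted p = 7.7e-08; 0.94 without the block). Bex2 went from 82.2, 117 and 83.3 TPM to 42.7, 65.9 and 41.1 TPM, with a blocked log2 fold change of -0.91 ± 0.10 (edgeR adjusted p = 2.1e-06). In both genes clone 11 was the highest in each condition.

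Tceal8 went from 46.5, 86.8 and 50.1 TPM to 23.3, 34.0 and 30.1 TPM, a blocked log2 fold change of -1.01 ± 0.10 (edgeR adjusted p = 1.1e-06). Tceal9 went from 518, 342 and 492 TPM to 276, 128 and 296 TPM, and its blocked log2 fold change of -0.99 ± 0.10 (edgeR adjusted p = 1.4e-06) fell just short of the required fold. Clone 11 thus had the most Tceal8 and the least Tceal9. Tceal1 was counted with 45, 52 and 58 reads uninduced and 8, 12 and 28 reads induced in clones 8, 11 and 15, and its groups overlapped in TPM (blocked log2 fold change -1.35 ± 0.40, edgeR adjusted p = 0.031).

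**Figure D3:**
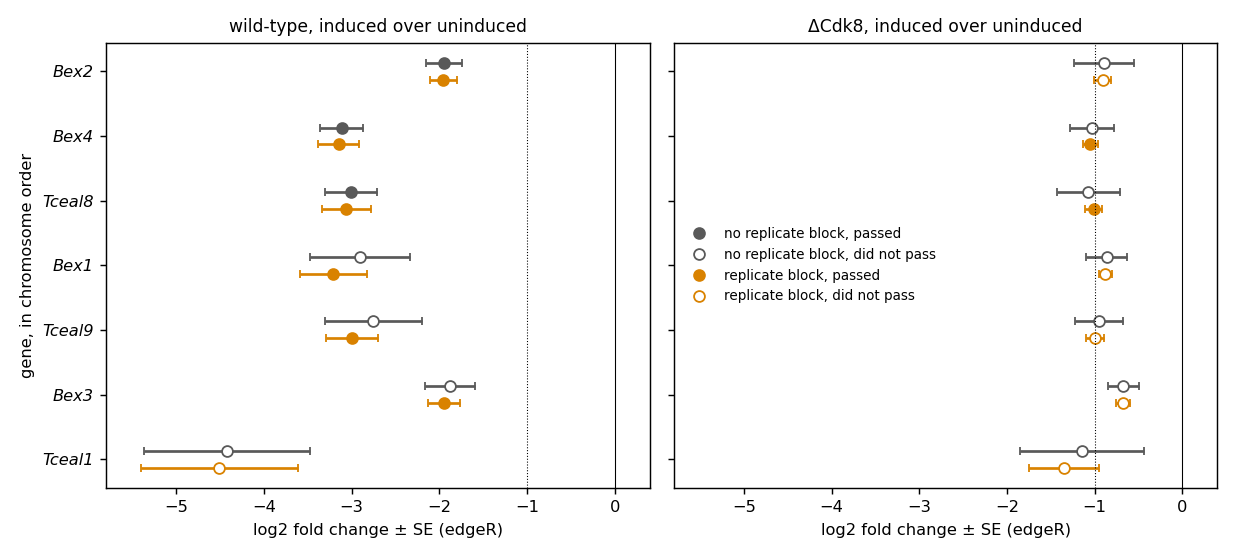
Log2 fold change of induced over uninduced libraries with its SE from edgeR for each gene, in wild-type (left) and ΔCdk8 cells (right), grey without and orange with the replicate or clone number as a block. Filled points passed the threshold of a fold change above 2 (dotted line) and an adjusted p under 0.01, which 3 wild-type points did without and 6 with the block, and 2 ΔCdk8 points with the block.

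The third comparison asks whether loss of Cdk8 changes the response to Xist. Mean residual expression in ΔCdk8 clones was 0.618 ± 0.0450 (SD, n = 3) for Bex3, 0.538 ± 0.0519 for Bex1, 0.526 ± 0.0368 for Bex2, 0.503 ± 0.117 for Tceal9, 0.498 ± 0.104 for Tceal8, 0.478 ± 0.0493 for Bex4 and 0.422 ± 0.294 for Tceal1. All 3 clones exceeded all 3 wild-type replicates in 7 of 7 members, a separation seen in 72.2% of 417 X-linked genes and 14.4% of all 11623 genes expressed in both genotypes. Tceal1, at a mean of 0.998 TPM in uninduced clones, is not among these expressed genes. Its lowest clone, at 0.170 from 8 induced reads, lay just above its highest wild-type replicate, at 0.151 from 5 induced reads. The exact permutation test gave a two-sided p of 0.1 for each member, the smallest that 3 against 3 allows. Over the 7 members the median residual came to 0.137 ± 0.0839 in wild-type samples and 0.532 ± 0.0327 in the clones (mean ± SD of 3 per-replicate medians). The X-linked medians were 0.314 ± 0.0368 and 0.590 ± 0.0193.

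In the clones the order of the mean residuals differed: Bex1 (0.538) lay nearer to Bex2 (0.526) than to Bex4 (0.478), and Bex3 was at 0.618. In clone 11, however, Bex1 (0.507) lay nearer to Bex4 (0.531) than to Bex2 (0.566). Bex2 and Bex3 both stood above the other 5 in clone 11, but in clones 8 and 15 Bex1 and Tceal9 exceeded Bex2. Clones differed most for Tceal9, at 0.533, 0.374 and 0.601 in clones 8, 11 and 15, for Tceal8, at 0.502, 0.391 and 0.600, and for Tceal1, at 0.170, 0.351 and 0.746. Clone 11 was thus lowest for Tceal8 and Tceal9, whereas it was highest for Bex2 (0.520, 0.566 and 0.493) and Bex4 (0.469, 0.531 and 0.433). The trophoblast marker sum was 44.0 and 47.3 TPM in clone 11 and 82.2 to 118 TPM in clones 8 and 15. The sum of markers of two-cell-like cells (6 of 6 listed) was 0.50 and 0.389 TPM in clone 11 and 5.12 to 15.8 TPM in clones 8 and 15, beside 0.106 to 1.60 TPM in wild-type libraries. The part of either list was not tested.

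The interaction of genotype and induction, the log2 fold change in ΔCdk8 minus that in wild-type cells, was tested over all 12 libraries. Without the block 0 of 7 members passed, as did 0 of 15137 genes (percent called 0), although 7 of 7 members and 587 genes had an unadjusted p under 0.05, and DESeq2 passed Bex4 alone among the members, beside 0.205% of all genes higher in ΔCdk8 cells. With the block 4 of 7 members passed, beside 0.78% of all genes and 16.8% of X-linked genes in that direction. They were Bex4 (2.12 ± 0.25, edgeR adjusted p = 0.0022), Tceal8 (2.07 ± 0.32, adjusted p = 0.0065), Bex3 (1.29 ± 0.21, adjusted p = 0.0082) and Bex2 (1.07 ± 0.18, adjusted p = 0.0093). Bex1 (2.34 ± 0.40, edgeR adjusted p = 0.011) and Tceal9 (2.01 ± 0.34, adjusted p = 0.010) lay just outside the threshold, and Tceal1 (3.14 ± 1.07, adjusted p = 0.12) did not pass. The median of the 549 X-linked genes tested was 0.96, and every member was above it. Without clone 8, 11 or 15 the blocked test passed 0 members, beside 0.729%, 7.89% and 0.904% of X-linked genes. Without wild-type replicate 1, 2 or 3 it passed 7, 1 and 2, beside 29.6%, 9.88% and 8.8%. Without replicate 1 the fitted value of Tceal1 was 7.47, which again depends on the prior count.

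ΔCdk8 and wild-type cells were also compared without Xist, since a residual depends on the level it starts from. By edgeR 0 of 7 members passed, as did 0 of 14646 genes (percent called 0), and 2 of 7 members and 2982 genes had an unadjusted p under 0.05. DESeq2 also passed 0 members, beside 0.833% of all genes lower and 1.8% higher. Bex1 and Tceal9 were higher in all 3 clones than in all 3 wild-type samples, which held for 12.9% of X-linked genes and 15.3% of all genes, with log2 fold changes of 0.55 ± 0.17 (edgeR adjusted p = 0.17) and 0.59 ± 0.20 (adjusted p = 0.19). The neural marker sums given above also did not overlap between the genotypes, with Stmn2 higher and Sox1 lower in the clones, and nor did the fibroblast marker sums (7 of 7 listed), at 8.79 to 17.8 TPM in wild-type samples and 19.8 to 29.5 TPM in clones. Most of the fibroblast sum was Thy1, at a mean of 11.6 and 19.3 TPM, and each of the other 6 averaged at most 1.5 TPM, with higher means in the clones for Col1a1, Col1a2 and Postn and lower ones for Col3a1, Dcn and Lum. Their part in the result was not tested. Tceal8 had a log2 fold change of -0.66 ± 0.31 (edgeR adjusted p = 0.27), and of -1.13 (adjusted p = 0.025) without clone 11.

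Uninduced libraries of 1 genotype differed in a different order for different members. Bex2, Bex4 and Tceal8, the first 3 of these genes along the chromosome, were each lowest in wild-type replicate 1 and highest in clone 11. Bex1, Tceal9 and Bex3, which come next on the chromosome, were each highest in replicate 1, and Tceal9 and Bex3 were each lowest in clone 11. Bex1 was lowest in clone 15. Tceal1 was lowest in replicate 1 and in clone 8. Arxes1 and Arxes2, the genes before Bex2, were highest both in replicate 1 (26.9 and 37.0 TPM) and in clone 11 (27.2 and 54.7 TPM). The part of position in this order was not tested. With 3 samples per genotype this order is given as a description.

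Reads on introns, which come mostly from unspliced RNA, were few. An uninduced library held 21469 to 52537 exon reads of the members but only 33 to 119 intron reads. Summed over the 7 genes, intron reads in wild-type replicates 1, 2 and 3 numbered 33, 70 and 116 uninduced and 14, 1 and 6 induced. In clones 8, 11 and 15 they numbered 119, 93 and 73 uninduced and 103, 28 and 27 induced. Scaled to all intron reads of each library, the residual was 0.294, 0.0203 and 0.0749 in wild-type replicates and 0.763, 0.455 and 0.445 in clones. Replicate 1 was again the highest of the wild-type samples, and all clones lay above all wild-type samples. How many other genes separate in this way on intron reads was not counted. The median log2 fold change of intron reads was -1.33 over 305 X-linked genes in wild-type cells and -0.65 over 344 in ΔCdk8 cells. The separation of the members is thus given as a description.

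Enough intron reads for a test were found in 2 members in wild-type cells. Tceal9 intron reads, 9, 21 and 20 uninduced and 1, 1 and 0 induced, had a log2 fold change of -4.26 ± 0.86 (edgeR adjusted p = 0.030), short of the threshold that 0.359% of all genes passed. With the block they decreased (-4.17 ± 0.87, edgeR adjusted p = 0.0028), beside 2.15% of all genes and 46.9% of X-linked genes. Bex1 intron reads, 10, 14 and 29 uninduced and 9, 0 and 3 induced, did not pass (-1.94 ± 0.72, edgeR adjusted p = 0.23). In ΔCdk8 cells Bex1, Tceal8 and Tceal9 could be tested and 0 of 3 passed, as did 0 of 11813 genes (percent called 0). None of the 3 had an unadjusted p under 0.05 without the block, where 274 genes did.

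Uniquely mapped reads made up 93.5% to 99.0% of Bex1 and 90.4% to 99.2% of Bex4 reads, beside at least 99.1% for the other members, so a small share of Bex1 and Bex4 reads could be split between genes of like sequence. Counting unique reads instead changed no member's call in the wild-type comparison. Bex1 also overlaps in part the annotated span of Tceal7 on the other strand, and whether counting used the strand is not stated.

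The other Bex and Tceal genes were expressed weakly or not at all. Of 8 looked for, 5 were listed, and Bex6, on chromosome 16, had 0 reads in every wild-type library. Tceal7, known as an inhibitor of NF-kB activity, had 52, 38 and 71 reads in uninduced and 14, 0 and 2 in induced wild-type replicates 1, 2 and 3. Tceal5 had 21, 27 and 72 reads uninduced and 4, 0 and 0 induced. Replicate 1 again kept the most reads of both. Tceal3 had 13, 11 and 25 reads uninduced and 0 in each induced library, so over the group it was at least 12.5-fold lower against a floor of 3 reads. Tceal6 had 3, 23 and 21 reads uninduced and 0, 0 and 4 induced, too few to be tested. In edgeR's test 0 of the 3 tested passed (adjusted p = 0.032 for Tceal3, 0.057 for Tceal5 and 0.13 for Tceal7), although all 3 had an unadjusted p under 0.05. With the block 0 passed, at edgeR adjusted p = 0.032, 0.026 and 0.028 in the same order. DESeq2 passed Tceal3 and Tceal5, beside 61.9% of X-linked genes.

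The Armcx, Gprasp and Arxes genes lie in and beside the same region of the X chromosome and are known to share 5′ noncoding sequence with Bex and Tceal genes. They decreased in 9 of 12 cases (11 of them X-linked) in wild-type cells and in 11 with the block. This stands beside 27.7% and 52.3% of X-linked genes. Their median log2 fold change was -2.42. Armcx6 (-6.26 ± 0.42, edgeR adjusted p = 0.0024), Armcx2 (-5.41 ± 0.40, adjusted p = 0.0024) and Armcx3 (-4.52 ± 0.40, adjusted p = 0.0031), of a family of armadillo repeat proteins found at mitochondria, had the largest fitted changes of these genes past the threshold. In ΔCdk8 cells 0 of 12 passed by edgeR, with 9 at an unadjusted p under 0.05 and a median of -1.08. DESeq2 passed 3, beside 0.243% of all genes, and edgeR with the block 6, beside 24.1% of X-linked genes.

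Genes for related factors and partners of these proteins lie mostly on autosomes. Of 22 autosomal genes for TFIIS, RNA polymerase II and other elongation factors, 0 passed by edgeR or DESeq2 in wild-type or ΔCdk8 cells. Their medians were 0.18 and 0.00 on the log2 scale. By edgeR 5 had an unadjusted p under 0.05 in wild-type cells, beside 2969 of all 14006 genes, and 0 in ΔCdk8 cells, beside 392 of 14832. With the block it was 12, beside 5449 of all genes, and 4, beside 3675. The largest wild-type change was in Polr2a, the largest subunit of RNA polymerase II (0.76 ± 0.26, edgeR adjusted p = 0.16). With the block it was 0.79 ± 0.11 (edgeR adjusted p = 0.0065), short of the required fold. Of 16 p75NTR signalling genes tested, 1 decreased in wild-type cells by edgeR and 2 by DESeq2, beside 1.01% and 3.14% of all genes. The gene passed by edgeR was the X-linked Maged1, which binds p75NTR as BEX1 and BEX3 do (-2.89 ± 0.20, edgeR adjusted p = 0.0024), and in ΔCdk8 cells it changed by -1.46 ± 0.16 (adjusted p = 0.26; 1.6e-09 with the block).

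Within 500 kb of the members, 25 genes other than Bex and Tceal genes were listed and 16 of them had a mean of at least 1 TPM in uninduced wild-type cells. Of 16 tested, 6 decreased in wild-type cells and 10 with the block, beside 27.7% and 52.3% of X-linked genes. In ΔCdk8 cells 5 of 17 tested decreased with the block, beside 24.1% of X-linked genes. Wild-type samples had a median residual of 0.244 over the 16 genes with at least 1 TPM and clones one of 0.535, beside 0.130 and 0.503 for the median of the members' mean residuals. Morf4l2, a chromatin protein gene next to Tceal1 and the most highly expressed neighbour, went from 521, 474 and 485 TPM to 105, 72.6 and 48.4 TPM in wild-type replicates 1, 2 and 3. Its residual averaged 0.152 ± 0.0509, and 0.377 ± 0.0306 in clones. Among the other well expressed neighbours, wild-type residuals were 0.254 ± 0.0865 for Bhlhb9, 0.233 ± 0.0931 for Arxes2, 0.364 ± 0.0528 for Gprasp1 and 0.150 ± 0.0347 for Arxes1. Arxes1, the nearest of these to Bex2, was thus below Bex2, and Gprasp1, the farthest, was above the X-linked median.

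**Figure D4:**
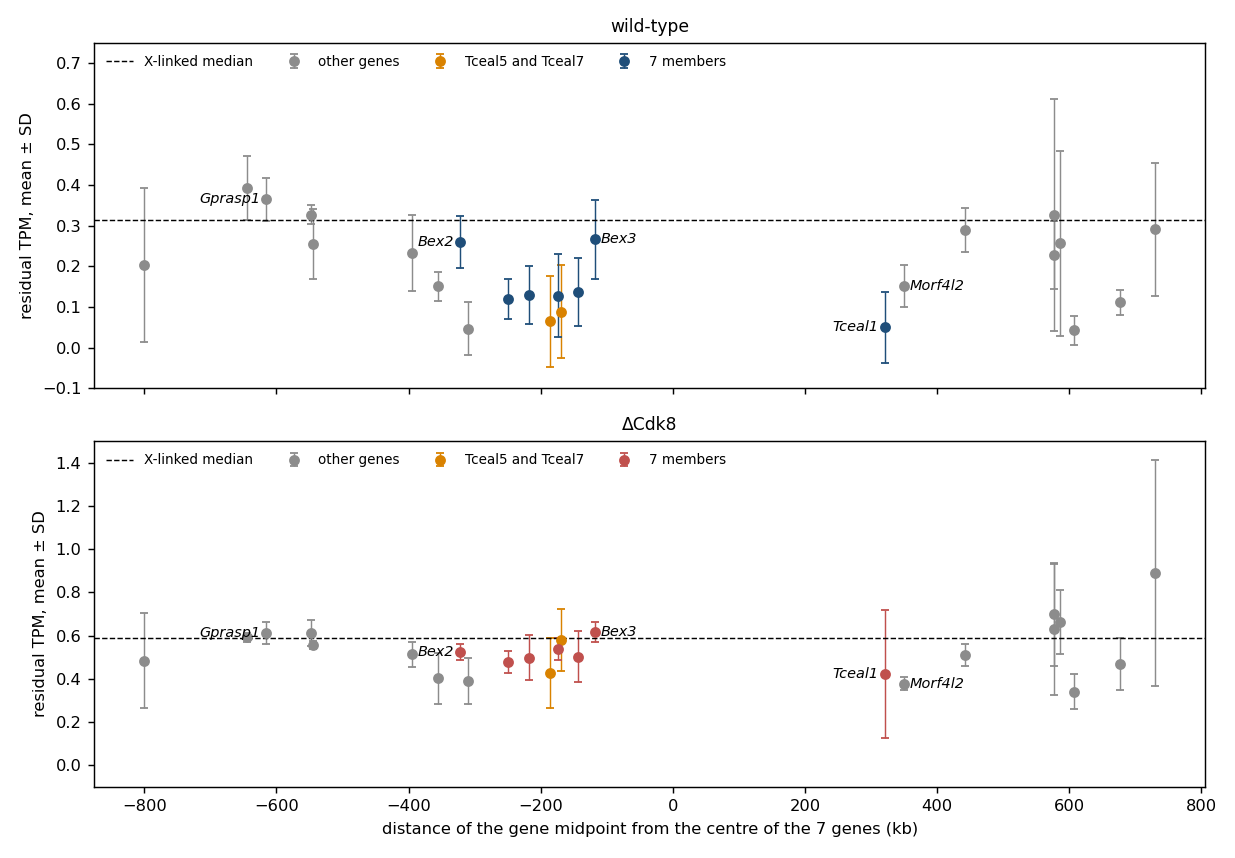
Mean residual expression ± SD (n = 3) of genes with at least 1 TPM within 500 kb of the 7 genes, by distance of each gene's midpoint from the centre of the 7 genes in kb, in wild-type (top) and ΔCdk8 cells (bottom), with the X-linked median as a dashed line and different vertical scales. In wild-type cells all 7 members lie below the dashed line at 0.314, and the other genes range from 0.0423 to 0.393.

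The genes whose TPM followed the members most closely over the 12 libraries lay elsewhere on the X chromosome. Against the mean of the standardised log2(TPM + 1) of the 6 members with at least 1 TPM on average, Pearson's r among 12125 genes was highest for Chic1 (0.985), Cetn2 (0.985), Foxo4 (0.984), Pdzd11 (0.982) and Cox7b (0.982). The points share the contrast of induced and uninduced libraries, which moves most X-linked genes, so r is a description. Their mean residuals in wild-type cells ranged from 0.193 for Foxo4 to 0.472 for Cox7b.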

How the data were processed

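The authors sequenced stranded polyadenylated RNA as single reads and aligned them to Ensembl GRCm38 in CLC Genomics Workbench without adapter trimming. The deposited counts, in 1 table per library, are unnormalized reads on genes, exons, introns and junctions. The deposited TPM values were checked to be exon reads per exon length. The authors' RPKM and fraction columns were not used in tests. edgeR 4.0.16 (TMM, filterByExpr with a minimum count of 10, quasi-likelihood test) in R 4.3.3 was run on gene reads of all genes, and passing meant a fold change above 2 and a Benjamini-Hochberg adjusted p under 0.01. DESeq2 1.42.0 was an alternative. Residuals were computed with Python 3.11.15. Scripts were tested on simulated data. Deviations from group means correlated at 0.566 to 0.711 between wild-type libraries of the same number and at 0.821 to 0.890 within clones, against at most 0.365 and 0.0496 between different numbers, so a replicate block was also fitted. The members, their lists and the neighbours (the 5 with the highest TPM within 500 kb) were chosen with earlier results of these data known. Other lists are described by counts, with genes named from up to 3 past the edgeR threshold without the block and the largest change. Some genes so picked are left out, and marker genes were named after their values were seen. Promoter windows are from RefSeq GRCm38.p6.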

Additional observations from a re-analysis of the deposited data

Results flagged for a closer look

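The change on induction differed between ΔCdk8 and wild-type cells in 4 members by the interaction term with the replicate block, beside 0.78% of all genes and 16.8% of X-linked genes. With any 1 of the 3 clones left out, the blocked edgeR test passed 0 members, with 6 or 7 at an unadjusted p under 0.05. The difference, ΔCdk8 minus wild-type on the log2 scale, was 2.12 for Bex4, 2.07 for Tceal8, 1.29 for Bex3 and 1.07 for Bex2. All 3 clones had a higher residual than all 3 wild-type replicates for each of them. Without the block none of them passed by edgeR, where all 4 had an unadjusted p under 0.05, and Bex4 passed by DESeq2. Groups of 3 are too small for a test of single samples that stand apart.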

How the results depend on the processing

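In the wild-type comparison the number of members that decreased was 3. It was 7 by DESeq2, 6 with the replicate block, with all 12 libraries in 1 fit, or with an adjusted p under 0.05 and no fold minimum, and 0 to 7 with replicates left out: 7 without replicate 1 and 0 without replicate 2 or 3. The block with exon reads, chosen after seeing the data as were blocked fits with replicates left out, gave 6, and the latter gave 0 to 7. In ΔCdk8 cells the number was 0, but 2 with the block, 1 with the block and exon reads, and 1 to 3 with the block and a clone left out. For the interaction it was 0, but 1 by DESeq2, 4 with the block, also with exon reads, and 0 to 7 with the block and a sample left out. Intron reads gave 0 in wild-type cells and 1 with the block. The median ΔCdk8 residual of the members was 0.532, and 0.487 over the mean of the uninduced samples without the replicate block. The cause of these changes was not tested. The uninduced difference of Bex2, 0.00, turned to 0.011 with exon reads and ranged from -0.30 to 0.13 with samples left out. Without the filter on low counts 4 members decreased in wild-type cells. For this setting, the fit of all 12 libraries and the exon-read fits, the share of other genes that passed was not counted. The median wild-type log2 fold change was -2.93 for the members and -1.72 for X-linked genes without the filter. With all 12 libraries in 1 fit it was -2.94 and -1.65. Without the block, autosomal TMM, unique reads and exon reads changed no count of members past the fold change and p threshold. Tceal1 is limited by its few reads, which leave its change imprecise.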
